A study of Rattus norvegicus with 22 samples.

Results

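The genes described are those of de novo lipogenesis, the pathway by which the liver makes fatty acids from sugar. The list held 10 genes (Fasn, Acaca, Acacb, Acly, Scd1, Elovl6, Me1, Thrsp, Pnpla3 and Srebf1), and a probe was a member when its gene name was one of these, with Scd taken beside Scd1. Of the 10 listed genes, 9 had a probe, Pnpla3 was not analysed here, and with Scd the members were 10 gene names of the 26276 on the array and of the 17079 tested. They were read on 12 probes, of which 11 passed the filter on dim probes. Results are given for 1 main probe per gene name, the brightest of those that passed.

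RNA came from the livers of 22 male Sprague-Dawley rats, and each rat was measured on 1 two-colour array. The rat's RNA carried Cy5, and a common reference, from the livers of healthy rats of 10 weeks that took no part in the feeding, carried Cy3. Rats were fed a semi-synthetic control diet or the BASE-diet, in which salmon fat took the place of lard and linden extract, pumpkin puree and probiotic bacteria were added. The groups were control diet for 3 months (CD 3, n = 5), BASE-diet for 3 months (BD 3, n = 5), control diet for 14 months (CD 14, n = 6) and BASE-diet for 14 months (BD 14, n = 6). The diets therefore differ in several components at once, and age and time on the diet cannot be told apart. All values below are log2 ratios of rat over reference unless Cy5 alone is named, so a value of 1 is a doubling against the reference.

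In lipogenesis, ATP citrate lyase (Acly) makes cytosolic acetyl-CoA, acetyl-CoA carboxylase (Acaca, and the mitochondria-bound form Acacb) makes malonyl-CoA, and fatty acid synthase (Fasn) joins these into palmitate. Elovl6 lengthens palmitate, stearoyl-CoA desaturases (Scd1, Scd2) put in a double bond, malic enzyme (Me1) supplies NADPH, and the nuclear protein Thrsp accompanies the programme. In liver the transcripts are known to rise with feeding, insulin and sugar through SREBP-1c, a product of Srebf1, and ChREBP, and to fall on fasting and with polyunsaturated fat such as that of fish.

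The promoters of 4 members whose values are described at length are shown so that their start regions can be compared. Each window runs from 250 bases before to 50 after the gene's start in RefSeq (build GRCr8), 300 bases in all, and is written 5′ to 3′ on the gene's strand. They lie at chr10:85963582-85963881 (minus strand) for Acly, chr1:161138915-161139214 (minus) for Thrsp, chr1:253231682-253231981 (minus) for Scd, the RefSeq name of the gene read by the Scd1 probe, and chr1:253118127-253118426 (plus) for Scd2, the RefSeq name of the gene read by the Scd probe. Capitals mark matches on either strand to a CCAAT box (CCAAT), a GC box (GGGCGG), an E-box (CACGTG) or a sterol regulatory element (TCACNCCAC).
Acly: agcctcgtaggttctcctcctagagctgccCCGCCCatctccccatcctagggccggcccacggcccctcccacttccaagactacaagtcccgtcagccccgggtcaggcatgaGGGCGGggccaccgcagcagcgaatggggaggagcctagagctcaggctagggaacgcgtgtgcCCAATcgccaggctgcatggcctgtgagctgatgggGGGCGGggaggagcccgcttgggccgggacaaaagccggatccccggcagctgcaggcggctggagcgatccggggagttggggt
Thrsp: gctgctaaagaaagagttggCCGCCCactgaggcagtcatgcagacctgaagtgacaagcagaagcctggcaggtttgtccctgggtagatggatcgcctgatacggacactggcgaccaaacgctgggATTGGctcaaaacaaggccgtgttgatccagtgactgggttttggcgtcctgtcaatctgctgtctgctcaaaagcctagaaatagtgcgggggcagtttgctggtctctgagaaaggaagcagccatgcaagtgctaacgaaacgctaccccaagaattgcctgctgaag
Scd: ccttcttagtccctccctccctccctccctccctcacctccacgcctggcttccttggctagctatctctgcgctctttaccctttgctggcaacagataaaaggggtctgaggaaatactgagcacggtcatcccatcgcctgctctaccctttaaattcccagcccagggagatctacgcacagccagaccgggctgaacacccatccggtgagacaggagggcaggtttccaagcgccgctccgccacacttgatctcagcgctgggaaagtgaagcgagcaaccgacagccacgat
Scd2: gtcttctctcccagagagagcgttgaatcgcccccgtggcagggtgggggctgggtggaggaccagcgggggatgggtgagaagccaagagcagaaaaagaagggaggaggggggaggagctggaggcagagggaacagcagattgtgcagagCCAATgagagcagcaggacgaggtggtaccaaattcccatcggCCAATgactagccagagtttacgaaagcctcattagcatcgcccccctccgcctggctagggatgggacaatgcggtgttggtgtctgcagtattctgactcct
The Acly window held 1 CCAAT box and 3 GC boxes, the Thrsp window 1 of each, and the Scd2 window 2 CCAAT boxes. The Scd window held no match to the 4 motifs, and none of the 4 windows held CACGTG or TCACNCCAC. Among 33469 promoter windows of the same length, 37.5% held a CCAAT box, 33.1% a GC box, 6.42% the E-box and 1.12% the sterol element. A match is a string of letters and not a shown binding site. The table used had entries for 8 of the gene names, and Fasn, Acaca and Elovl6 were not among them.

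The probes lie, on the array's rn4 coordinates, at chr10:89420943-89421002 for Acly, chr10:72499952-72500011 for Acaca, chr12:43388775-43389414 for Acacb, chr2:227054046-227054105 for Elovl6 and chr1:249458860-249458919 for Scd1. The others lie at chr1:249370837-249370896 for Scd, chr8:91839922-91839981 for Me1, chr1:154651216-154651275 for Thrsp and chr10:46462235-46462294 for Srebf1, and the Fasn probe carried no position. Which exon or untranslated region they fall in was not analysed here. Scd1 and Scd are related genes that lie close together on the chromosome, and how far each probe also reads the other gene was not tested.

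The liver label was checked on 9 hepatocyte markers, which were above background on all 22 arrays. Spots well above background in Cy5 made up 52.4% to 93.6% of an array. Both ends were CD 3 arrays, rat 4 and rat 1, which also had the lowest array weights of the 22 in limma (0.178 and 0.269, against 0.443 to 1.95 for the rest). On rat 1, 5.71% of spots carried an outlier flag. These rats held the lowest CD 3 value in 4 (rat 1) and 5 (rat 4) of the 10 members. Of the 10 members, 7 were above background on every array. The exceptions were all CD 3 rats of 1 slide, where Acaca and Scd were not well above background on rat 4 and Acacb on rats 3 and 4. The reference was dimmer: in Cy3 Acacb was well above background on 10 of 22 arrays, Elovl6 on 19 and Acaca on 20, so most ratios of Acacb are taken over a reference signal near background. The arrays lay on 5 slides, each with its own scan day: slide A held 3 BD 3 and 3 CD 14 rats, slide B 1 CD 3 and 2 BD 3, slide C 2 CD 14 and 6 BD 14, slide D 3 CD 3, and slide E 1 CD 3 and 1 CD 14. BD 3 and BD 14 shared no slide, so slide and time cannot be told apart there without the CD 14 rats that lie on slides A and C. The labels place Cy5 on the rat in every group, whereas the methods text names Cy3 for controls. The labels were followed, and pairs of arrays correlated between -0.08 and 0.63 over the tested probes (median 0.33).

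The question of the first comparison was whether the BASE-diet altered these transcripts after 3 months. No member passed the test: 0 of 10 had a limma adjusted p under 0.05 and 0 of 10 an unadjusted p under 0.05, where over all probes tested 0% and 7.1% did. Of the members 5 of 10 were higher on the BASE-diet, against 53.6% of all probes. Their median difference was -0.03, against 0.03 over all probes, and adjusted p ran from 0.851 to 0.999. Within slide B, where 2 BD 3 rats lay beside 1 CD 3 rat, 8 of 10 members were higher in BD 3 with a median of 0.42. There Acaca was 1.42 higher, whereas Scd1 differed by -3.42. With slide as a fixed block, which uses all 22 arrays, 4 of 10 were higher with a median of -0.21.

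Acly gave the lowest difference at 3 months. Its log2 ratios were -0.23, 1.94, 1.32, 1.9 and 1.37 in CD 3 and 0.26, 0.12, 0.9, 1.02 and 0.26 in BD 3. In CD 3 4 rats lay above every BD 3 rat and 1, rat 1, lay below them all. The difference was -0.75 ± 0.63 (SE), with an adjusted p of 0.867 and an exact two-sided permutation p of 0.159. Within slide B, where the 1 CD 3 rat is that rat 1, it was 0.42, the other sign.

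Scd gave the highest. Its log2 ratios were -1.43, -1.5, -3.09, -3.72 and -0.71 in CD 3 and -0.5, -1.53, -0.24, -0.57 and -0.92 in BD 3. The 2 lowest rats, CD 3 rats 3 and 4, were both on slide D, and the remaining 3 CD 3 rats overlapped BD 3. The difference was 1.34 ± 1.05 (adjusted p 0.851, exact permutation p 0.0556), and it was 0.55 ± 1.06 in Cy5 alone. It was -0.24 ± 1.72, the other sign, with slide as a fixed block.

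The carboxylases and the synthase lay between. Acaca differed by -0.40 ± 0.66 (0.83 ± 0.7 in Cy5 alone, the other sign) and Acacb by 0.72 ± 0.61. Fasn differed by -0.23 ± 0.69. None of these differences exceeded the spread between rats by the test. Elovl6 (-0.07 ± 1.0), Scd1 (0.03 ± 1.18), Me1 (-0.12 ± 0.57), Thrsp (0.00 ± 0.33) and Srebf1 (0.16 ± 0.5) differed by less than 1 SE. With standard errors of 1.0 and 1.18, a change of 1 log2 unit either way lies within the error of Elovl6 and Scd1. Groups did not overlap for 0 of 10 members, against 0.762% of all probes.

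After 14 months the diets again gave no call. Of the members 0 of 10 passed the adjusted test and 0 of 10 the unadjusted one, where 0% and 4.61% of all probes did. Higher on the BASE-diet were 5 of 10 members, against 56.3% of all probes, with a median difference of 0.03 (all probes 0.05), adjusted p between 0.952 and 0.992, and exact permutation p of 0.299 or more. No member's groups were free of overlap, against 0.767% of all probes.

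No step of the pathway passed the test. Acacb was 0.57 ± 0.56 higher in BD 14 and Elovl6 0.46 ± 0.92. Scd differed by -0.90 ± 0.96 and Scd1 by -0.48 ± 1.08. Fasn differed by -0.09 ± 0.63 and Acly by -0.29 ± 0.58. The Scd value turned on single rats: it was 0.07 without CD 14 rat 3, -1.63 without BD 14 rat 6, and -0.66 ± 0.55 without both. Without CD 14 rat 3 the median over the members went from 0.03 to 0.45, 9 of 10 were higher on the BASE-diet, and 2 had an unadjusted p under 0.05. These were Me1 (0.90 ± 0.39) and Thrsp (0.58 ± 0.26), each with an adjusted p of 0.929. With that rat they were 0.36 ± 0.52 and 0.32 ± 0.30. Within slide C, where 6 BD 14 rats lay beside 2 CD 14 rats, 9 of 10 members were higher in BD 14 with a median of 0.71. There Elovl6 was 1.64 higher, Acaca 1.17 and Fasn 1.09, while Scd1 differed by 0.06 and Scd by -0.17.

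The diet differences at 14 and at 3 months did not differ from each other by a test. The interaction ran from -2.24 ± 1.43 for Scd to 0.54 ± 0.9 for Acaca, 0 of 10 members passed at an adjusted or unadjusted p of 0.05, where 0% and 4.8% of all probes did, and each adjusted p was 0.999.

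**Figure D1:**
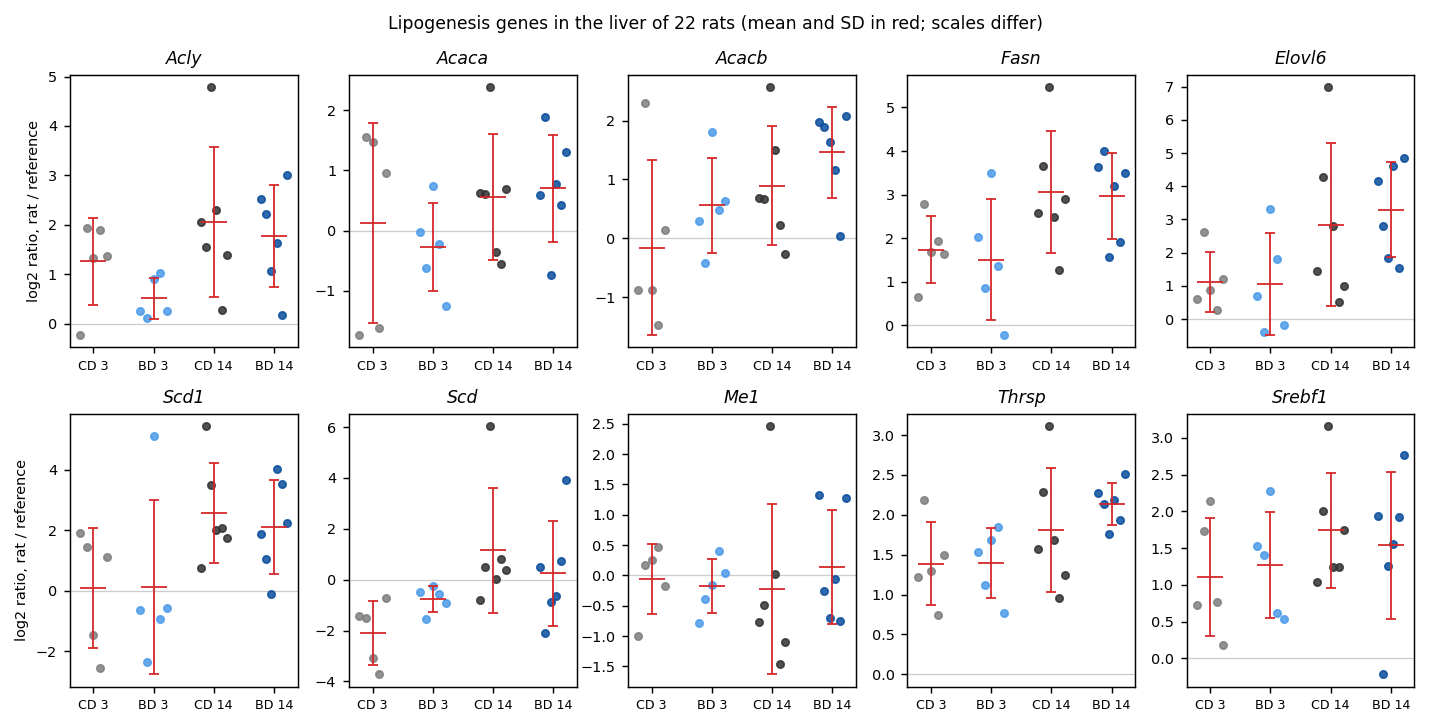
Log2 ratio of rat over reference (y axis, scales differ between panels) for each of the 10 members, with 1 point per rat in CD 3, BD 3, CD 14 and BD 14 and the group mean with its SD in red. Diet groups of the same month overlap for every member, and the residual SD within groups is widest for Scd1 (2.03) and narrowest for Thrsp (0.54).

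The second question was how the transcripts stood after 14 months against 3 months on the same diet. On the control diet 9 of 10 members were higher at 14 months, against 53.5% of all probes, with a median difference of 0.93 against 0.03. On the BASE-diet 10 of 10 were higher, against 58.7%, with a median of 1.00 against 0.07. No single member passed: limma called 0 of 10 at an adjusted p of 0.05 in either comparison, where 0% of all probes were called, and the F test of the methods with Tukey's HSD called 0 of 10 as well. At an unadjusted p under 0.05, 2 members stood higher in CD 14 (6.86% of all probes did, and 10.1% in either direction) and 4 in BD 14 (4.75%, and 7.43% in either direction). With 1 array left out these counts ran from 1 to 4 and from 0 to 5. The count in BD 14 was 0 without BD 3 rat 2, BD 3 rat 5 or BD 14 rat 6. The control-diet median of 0.93 fell furthest, to 0.53, without CD 14 rat 3, with 9 of 10 members higher. It was 0.70 without CD 3 rat 1, with 8 of 10 higher, and 0.84 without CD 3 rat 4, with 9 of 10 higher. Under array weights, which count both these arrays little, it was 0.88, with 8 of 10 higher. The members are correlated across rats, as shown further on, so 9 or 10 genes on 1 side are not 10 separate observations.

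Scd, read by RefSeq as Scd2, had the largest difference on the control diet. Against the 5 CD 3 values given above, all below -0.7, the lowest, median and highest of the 6 CD 14 rats were -0.81, 0.44 and 6.03. The groups overlapped by 1 rat of each, CD 14 rat 1 falling just below CD 3 rat 5. The difference was 3.25 ± 1.01, a 9.5-fold higher ratio, with an adjusted p of 0.268 and an exact permutation p of 0.00649. The lowest CD 3 value, -3.72 on rat 4 of slide D, came from a signal not well above background. In Cy5 alone the difference was 2.55 ± 1.01, and with slide as a fixed block it was 1.95 ± 1.79. It was 2.27 without CD 14 rat 3, the lowest of the values with 1 array left out, and 1.08 between the single rats of each group on slide E. On the BASE-diet Scd ran from -2.1 over a median of -0.08 to 3.92 at 14 months, and the difference was 1.01 ± 1.01. Without BD 14 rat 6 that became 0.27.

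Scd1, the main liver desaturase, was 1.92, 1.43, -1.47, -2.56 and 1.13 in CD 3 and -0.64, -2.35, 5.11, -0.94 and -0.57 in BD 3. At 14 months it ran from 0.75 over 2.04 to 5.43 in CD 14 and from -0.12 over 2.07 to 4.02 in BD 14. Medians stood higher at 14 months on both diets, but BD 3 rat 3 exceeded every BD 14 rat. The difference was 2.49 ± 1.13 on the control diet (5.64-fold, adjusted p 0.466, exact permutation p 0.0476) and 1.99 ± 1.13 on the BASE-diet (adjusted p 0.725, exact permutation p 0.175). With slide as a fixed block the control-diet value was -0.35 ± 1.87, and without BD 3 rat 3 the BASE-diet value was 3.23.

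Elovl6 was 0.59, 2.62, 0.88, 0.26 and 1.21 in CD 3 and 0.7, -0.38, 3.31, 1.8 and -0.19 in BD 3. It ran from 0.52 over 2.12 to 6.99 in CD 14 and from 1.55 over 3.47 to 4.86 in BD 14. Only 2 BD 3 rats, 3 and 4, reached into the range of BD 14. The BASE-diet difference was 2.25 ± 0.96 (4.76-fold, adjusted p 0.61, exact permutation p 0.0368), and the control-diet difference 1.72 ± 0.96 (adjusted p 0.568, exact permutation p 0.173). Without CD 14 rat 3 the latter was 0.89.

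Fasn was 0.65, 2.79, 1.69, 1.93 and 1.65 in CD 3 and 2.03, 0.86, 3.5, 1.36 and -0.22 in BD 3. The lowest, median and highest values were 1.28, 2.74 and 5.47 in CD 14 and 1.57, 3.35 and 4.0 in BD 14. All but 1 of the 22 rats were above the reference. Fasn was 1.32 ± 0.66 higher in CD 14 (2.5-fold, adjusted p 0.514, exact permutation p 0.0866) and 1.46 ± 0.66 higher in BD 14 (2.76-fold, adjusted p 0.641, exact permutation p 0.0779). Without CD 14 rat 3 the first was 0.84.

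Acly ran from 0.27 over 1.8 to 4.79 in CD 14 and from 0.17 over 1.93 to 3.0 in BD 14, beside the 3-month values given above. On the BASE-diet 5 of 6 rats at 14 months lay above every rat at 3 months, and BD 14 rat 5 was the exception. The difference there was 1.25 ± 0.6 (2.39-fold, adjusted p 0.672, exact permutation p 0.0411). On the control diet it was 0.80 ± 0.60, and 0.25 without CD 14 rat 3.

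Thrsp varied least. It was 1.22, 2.18, 1.29, 0.75 and 1.5 in CD 3 and 1.53, 1.12, 1.69, 1.85 and 0.77 in BD 3, with 0.96, 1.63 and 3.11 as the lowest, median and highest in CD 14 and 1.76, 2.17 and 2.51 in BD 14. Every rat of every group was above the reference, and a single BD 3 rat reached the lowest BD 14 rat. The BASE-diet difference was 0.74 ± 0.32 (1.67-fold, adjusted p 0.61, exact permutation p 0.00649). On the control diet it was 0.42 ± 0.32 (adjusted p 0.705), and 0.16 without CD 14 rat 3. In Cy5 alone the BASE-diet difference was 0.83 ± 0.59. The range of log2 Cy5 over the rats was 5.22 for Thrsp, wider than for Me1 (3.88) and Srebf1 (4.14).

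The remaining members had no unadjusted p under 0.05 in the ratios. The carboxylases were Acaca, 0.44 ± 0.63 on the control diet and 0.99 ± 0.63 on the BASE-diet, and Acacb, 1.05 ± 0.59 and 0.90 ± 0.59. In Cy5 alone the control-diet difference of Acaca was 1.51 ± 0.67, whereas in the ratios without CD 3 rat 1 it was -0.03. Srebf1, which encodes the regulator of the programme, differed by 0.63 ± 0.48 and 0.26 ± 0.48. These became 0.34 without CD 14 rat 3 and 0.02 without BD 14 rat 6. Me1 was the one member lower in CD 14 than in CD 3, at -0.17 ± 0.54, and in BD 14 it was 0.32 ± 0.54 higher than in BD 3. The former was -0.70 without CD 14 rat 3. A second probe of Me1 correlated with the first at 0.78 and gave 0.53 and 0.24. Groups that did not overlap were 0 of 10 in both time comparisons, against 0.509% of all probes on the control diet and 2.26% on the BASE-diet.

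Over all 4 groups the limma F test gave 0 of 10 members an adjusted p under 0.05 (0.0257% of all probes, 5 in number) and 1, Scd, an unadjusted one (10.5%). Between single rats of slide E the median control-diet difference was -0.10, with 5 of 10 members higher at 14 months. With slide as a fixed block the medians were 1.07 on the control diet and 2.07 on the BASE-diet. With that block 8 of 10 members were higher on the control diet, 0 of them at an unadjusted p under 0.05. On the BASE-diet 10 of 10 were higher, 3 of them at an unadjusted p under 0.05.

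**Figure D2:**
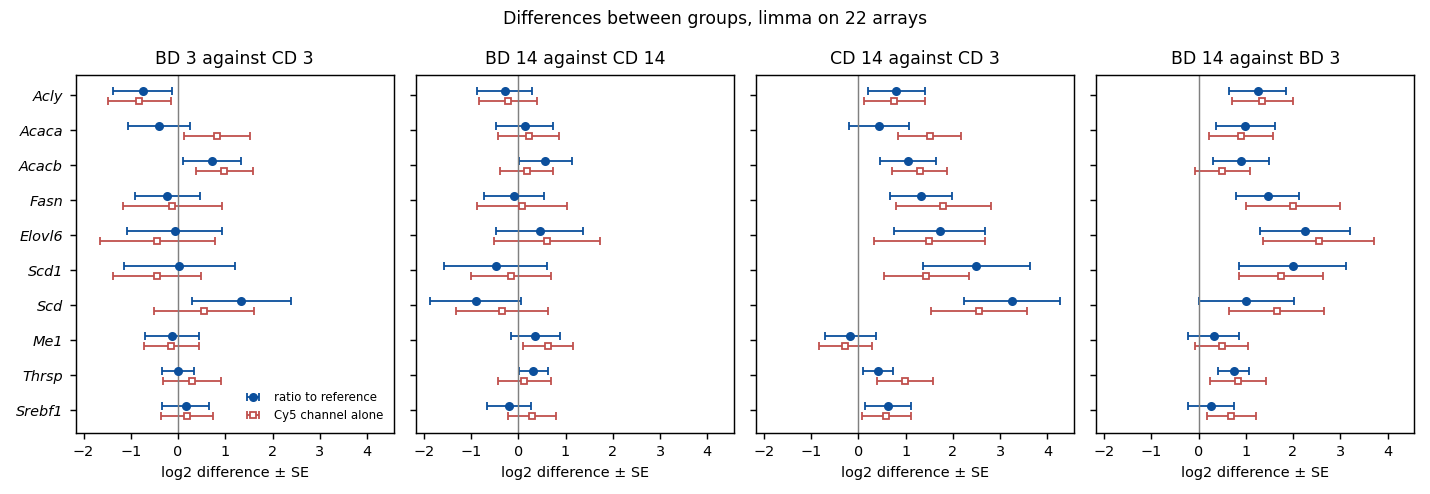
Fitted log2 difference of each member with its SE (x axis), 1 panel per comparison, from the ratio to the reference (filled circles) and from the Cy5 channel alone (open squares). The diet differences of the ratio lie on both sides of 0 (medians -0.03 and 0.03), and the time differences lie mostly above it (medians 0.93 and 1.00).

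Rats of 1 group differed widely in these genes. The residual SD within groups was 1.1 in the median over the members, against 0.53 over all probes. It was 2.03 for Scd1, larger than for 99.9% of tested probes, 1.8 for Scd and 1.72 for Elovl6. Thrsp, at 0.54, was in the middle of all probes, with 51.5% smaller. The distance between the lowest and highest rat was 9.74 for Scd and 2.36 for Thrsp.

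CD 14 rat 3 had the highest value of all 22 rats in 9 of 10 members, the exception being Scd1, where CD 14 rat 2 was highest at 5.43. In the median over members it stood 2.41 above the median of its group, and 15.0% of all probes had their highest CD 14 value in that rat. BD 14 rat 6 was the highest of its group in 6 of 10 members, where 14.8% of all probes were. With each member centred on its mean over all rats, the members' mean was 2.93 in CD 14 rat 3 and 1.63 in BD 14 rat 6. Over the rats of a group these means averaged -0.67 ± 0.72 (SD) for CD 3 and -0.60 ± 0.84 for BD 3, and 0.53 ± 1.28 for CD 14 and 0.52 ± 0.74 for BD 14.

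The same 2 rats were set beside genes outside the list. Of 10 genes for precursor and NADPH supply, 6 were the highest of the group in CD 14 rat 3 and 0 in BD 14 rat 6. Of 9 tested genes of the fasting response, 6 were the lowest of the group in CD 14 rat 3 and 1 was above the group median. Their median stood at -1.39 from it, while 14.8% of all probes were lowest in that rat. In BD 14 rat 6, 2 of 9 fasting genes were above the group median and 4 of 4 red cell markers were the lowest of the group, as were 19.3% of all probes. In the reference channel, 4 of 10 members were the highest or second highest of the 22 arrays on CD 14 rat 3 (Acaca, Fasn, Elovl6 and Thrsp) and 3 of 10 on BD 14 rat 6 (Acly, Fasn and Thrsp). For Fasn log2 Cy3 was 11.26 and 11.03, against 7.86 to 9.62 on the remaining arrays, whereas for Scd it was 6.89 and 7.17, within the range of the others. The part of the reference in the ratios was not tested. With both rats left out, the median differences were -0.03 and 0.34 for the diets at 3 and 14 months and 0.53 and 0.82 for time on the control and BASE-diet.

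**Figure D3:**
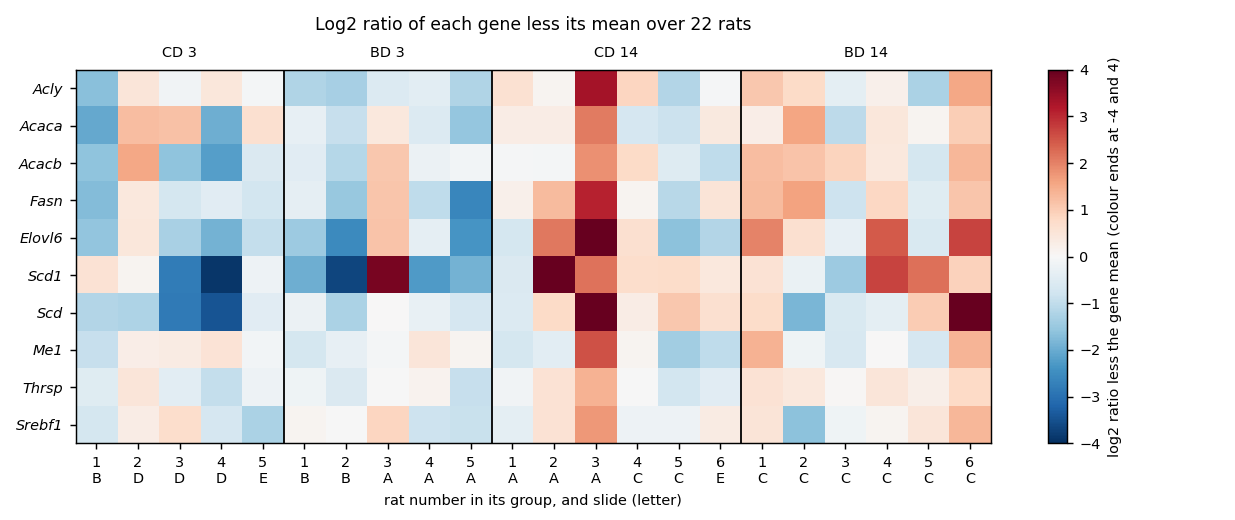
Log2 ratio of each member (rows) in each of the 22 rats (columns, by group, with the rat's number and the letter of its slide), as a colour after subtraction of the member's mean over rats, with red above and blue below that mean and larger values drawn in the end colours. CD 14 rat 3 stands highest, with a mean over members of 2.93, and BD 14 rat 6 next, with 1.63.

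The Scd1 ratio also carried the level of its reference. In Cy3, which should hold the same RNA on each array, the log2 signal of the Scd1 probe was 9.2 to 11.34 on 6 arrays and 13.2 to 14.85 on 16. The 6 were CD 3 rat 1, BD 3 rat 3, CD 14 rats 2 and 5, and BD 14 rats 4 and 5, and each group kept 4 arrays of the brighter kind. The ratios were 1.92, 3.78 and 5.43 as lowest, median and highest on the 6, and -2.56, 0.9 and 3.49 on the 16, while the median log2 Cy5 was 14.52 and 14.49. The high ratio of BD 3 rat 3 and of CD 14 rat 2 thus went with a dim reference spot. Fasn, Elovl6 and Thrsp were also lower in Cy3 on the 6 arrays, by -0.94, -0.87 and -0.81, Scd by -0.40, and Acly differed by 0.08, against -3.69 for Scd1.

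The 16 arrays of bright reference were also taken alone. They were picked on Cy3, by which the ratio is divided, so the choice is not independent of the ratios compared. On them Scd1 was 2.37 ± 0.84 higher in CD 14 than in CD 3 (adjusted p 0.557) and 2.40 ± 0.84 higher in BD 14 than in BD 3. The diet difference at 3 months was -0.76 ± 0.84. Over the members, the medians on these arrays were -0.56 and -0.13 for the diets and 1.05 and 1.47 for time. In Cy5 alone, on all 22 arrays, the time differences of Scd1 were 1.44 ± 0.89 and 1.75 ± 0.89. Over the members the Cy5 medians were 0.03 and 0.15 for the diets and 1.37 and 1.12 for time.

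**Figure D4:**
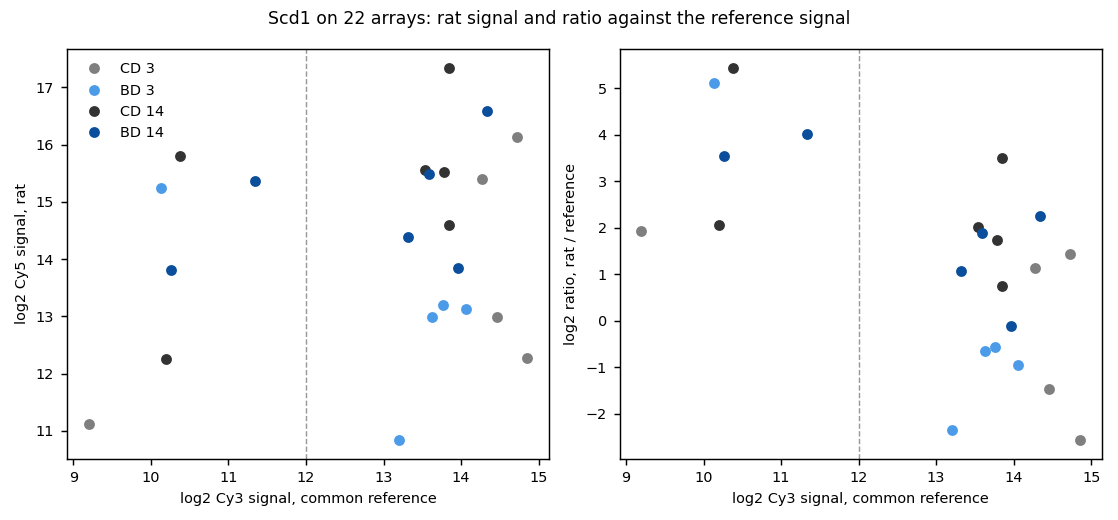
Log2 Cy5 signal of the rat (left) and log2 ratio (right) of the Scd1 probe against the log2 Cy3 signal of the common reference (x axis), 1 point per array, coloured by group, with a dashed line between the dim and the bright reference. The reference falls in a dim set of 6 arrays (9.2 to 11.34) and a bright set of 16 (13.2 to 14.85), whose median rat signals are 14.52 and 14.49.

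Rats with more of 1 lipogenic transcript tended to have more of the others. After the group means were taken out, all 45 pairs of members correlated above 0 over the 22 rats, with Pearson r from 0.01 to 0.92, a median of 0.57 and a median Spearman rho of 0.52. These are descriptions without a test, since the points share arrays and, through the ratio, a reference. The closest pairs were Acly with Me1 (0.92, and 0.82 without CD 14 rat 3 and BD 14 rat 6), Elovl6 with Thrsp (0.90 and 0.84) and Fasn with Elovl6 (0.84 and 0.76). Without the 2 rats the median r was 0.38 and the range -0.34 to 0.84.

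Over the 22 rats the desaturases and Srebf1 had the lowest correlations with the other members in the ratios. The median r with the others was 0.38 for Scd1, 0.49 for Srebf1 and 0.50 for Scd, and without the 2 rats 0.38, 0.28 and 0.20, with Me1 at 0.33. For Scd1 with Acly r was 0.01, but 0.73 in Cy5 alone. Over all pairs the median in Cy5 was 0.65, and 0.41 without the 2 rats. Within slide A, over 6 arrays, 44 of 45 pairs were above 0 with a median of 0.77, and within slide C, over 8 arrays, 40 of 45 with a median of 0.41.

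**Figure D5:**
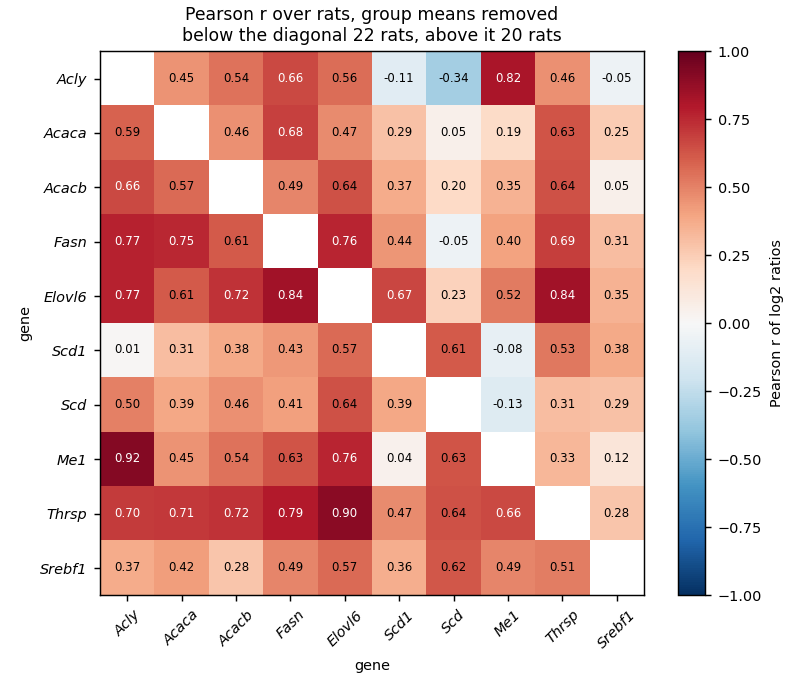
Pearson r between log2 ratios of members after subtraction of group means, as a grid of member by member, over 22 rats below the diagonal and over 20 rats, without CD 14 rat 3 and BD 14 rat 6, above it. All 45 pairs are above 0 over 22 rats, from 0.01 (Acly and Scd1) to 0.92 (Acly and Me1), and over 20 rats they run from -0.34 to 0.84.

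Among the 16474 genes ranked besides the members, the 5 whose pattern over the 22 arrays was most like the members' mean, with differences between groups kept in, were LOC691807 (Pearson r 0.84), Secisbp2l (0.81), the unnamed transcript FQ215489 (0.80), Tkt (0.80) and Gsta3 (0.79). Tkt encodes transketolase of the pentose phosphate pathway, and Gsta3 a glutathione transferase. Without the 2 rats, the r of LOC691807 was 0.76 and that of Tkt 0.69.

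The pathway around the members was described through lists. In the fit of group means none of 12 regulators (among them Mlxipl, which encodes ChREBP, Nr1h3, which encodes LXR alpha, and Insig1) passed an adjusted or unadjusted p of 0.05 in any comparison of 2 groups. Of 10 genes for precursors and NADPH, 9 correlated above 0 with the members' mean after group means were subtracted, with a median r of 0.42, and Tkt (0.78), Acss2 (0.64) and Pklr (0.58) were the closest. None of them passed the adjusted test. Pklr, the liver pyruvate kinase, was lower in BD 3 than in CD 3, at -1.14 ± 0.32 (adjusted p 0.4, and -1.23 within slide B). Gckr, which restrains glucokinase, stood at -0.50 ± 0.22 (adjusted p 0.671, and 0.17 within slide B).

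Of 5 genes around malonyl-CoA, 1 had an unadjusted p under 0.05 in each diet comparison and none an adjusted one. This was Cpt1a, the carnitine palmitoyltransferase of liver that malonyl-CoA inhibits. It was 1.25 ± 0.47 higher in BD 3 (adjusted p 0.541), with group means of -2.33 ± 1.11 (SD) in CD 3 and -1.08 ± 0.44 in BD 3, and 0.09 within slide B. After 14 months it was 1.06 ± 0.43 higher on the BASE-diet (adjusted p 0.952), and 1.41 within slide C. Without CD 14 rat 3 this was 0.78 (adjusted p 0.929).

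Glycerolipid genes, which turn fatty acids into stored triglyceride, were higher on the BASE-diet in 11 of 11 tested after 14 months, with a median of 0.26 (all probes 0.05), and in 4 of 11 after 3 months, where the median was -0.01 (all probes 0.03). In Cy5 alone these were 8 of 11 with a median of 0.21 and 10 of 11 with a median of 0.46. None passed the adjusted test in the ratios. Cidec, a protein of lipid droplets, was 1.05 ± 0.31 higher in BD 3 (adjusted p 0.4) and 1.26 ± 0.28 higher in BD 14 (adjusted p 0.397), with 1.14 within slide B and 1.19 within slide C. Its means were -0.58 ± 0.7 (SD) and 0.47 ± 0.47 after 3 months on the control and BASE-diet, and -0.64 ± 0.36 and 0.62 ± 0.46 after 14 months. In Cy5 alone the 3-month difference of Cidec was 1.29 with a limma adjusted p of 0.0146, past the threshold. In that setting 221 probes in all passed at 3 months, against 0 in the ratios. The 14-month difference in Cy5 alone was 1.1 with an adjusted p of 0.209. Over the Cy5 channel alone, slide as a fixed block, the shared slide alone and CD 14 rat 3 left out, the adjusted p ran from 0.0146 to 0.459 at 3 months and from 0.209 to 0.693 at 14 months. Lpin1, a phosphatidate phosphatase, was 1.20 ± 0.39 higher in BD 14 (adjusted p 0.852), but 0.21 in Cy5 alone.

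In bulk liver, fewer cells of a type and less RNA per cell cannot be told apart. Markers of other cell types are given beside the time differences. Of the leukocyte markers 4 of 4 tested were higher in CD 14 than in CD 3 with a median of 0.95 (all probes 0.03), led by Ptprc (1.32 ± 0.58, adjusted p 0.444) and Cd68 (1.19 ± 0.41, adjusted p 0.314). With slide as a fixed block these were 0.31 ± 0.91 and 0.34 ± 0.62, and the list had 2 of 4 higher with a median of 0.08. In BD 14 against BD 3, 4 of 4 were higher with a median of 0.25 (all probes 0.07), and 0 of 4 with the block, at a median of -0.80. In Cy5 alone 4 of 4 were higher at 14 months on the control diet (median 0.99) and 3 of 4 on the BASE-diet (median 0.77). Their summed Cy5 signal was 1710 to 6290 in CD 3, 2260 to 6320 in BD 3, 2490 to 31000 in CD 14 and 3000 to 6080 in BD 14.

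Adipocytes, which also make fatty acids, were read on 6 markers, of which 3 were tested. Summed Cy5 was 926 to 2150 in CD 3, 1620 to 2460 in BD 3, 2170 to 6620 in CD 14 and 1080 to 3290 in BD 14. Plin1 was not well above background on any array of CD 14 or BD 14, nor Adipoq on any of BD 3. Higher at 14 months were 3 of 3 on the control diet, with a median of 1.17, and 2 of 3 on the BASE-diet, with a median of 0.03. With slide as a fixed block these medians were 0.68 and 0.56, with 2 of 3 higher on each diet. Cfd was 1.17 ± 0.39 higher in CD 14 than in CD 3 (adjusted p 0.298, and 0.68 ± 0.52 with the block), but -0.28 in BD 14 against BD 3, and -1.54 with the block. Fabp4 was 2.12 ± 0.88 higher in BD 14 than in BD 3 (adjusted p 0.602). Hepatocyte markers summed to between 381000 and 1090000 over the arrays. With the members' mean, 3 adipocyte markers gave a median r of -0.26 and 4 leukocyte markers -0.14, whereas 9 hepatocyte markers gave 0.32.

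Red cell markers were higher in BD 14 than in BD 3 in 4 of 4 tested, with a median of 0.71 (0.50 in Cy5 alone and 0.50 with slide as a fixed block). On the control diet 3 of 4 were higher at 14 months, with a median of 0.23 (0.07 and 0.01). Their summed Cy5 was 104000 to 325000 in CD 3, 47600 to 232000 in BD 3, 137000 to 307000 in CD 14 and 128000 to 222000 in BD 14. Bile duct markers were higher in BD 14 than in BD 3 in 3 of 3 tested, with a median of 0.73 (0.68 and 1.12), and in 2 of 3 on the control diet, with a median of 0.29 (-0.14 and 0.60). They summed to 87.4 to 323 in CD 3, 176 to 330 in BD 3, 242 to 863 in CD 14 and 228 to 589 in BD 14. Of 5 stellate markers 3 were higher at 14 months on each diet, with medians of 0.03 and 0.08 (-0.29 and 0.03 with the block, and -0.03 and 0.08 in Cy5 alone). With the members' mean the median r was -0.20 for red cell, 0.00 for bile duct and 0.07 for stellate markers. No red cell, bile duct or stellate marker had an unadjusted p under 0.05 in a time comparison in the fit of group means. The part of other cells in the time differences was not tested.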

How the data were processed

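Liver RNA of 22 rats was hybridised to Agilent two-colour arrays, 1 per rat. The deposited intensity values per spot come from the authors' runs of Agilent Feature Extraction (version 10.7.3.1 in their processing notes, another version in the file headers), which subtracts background and normalizes the dyes by Lowess. The deposited log10 ratios set processed Cy5 over processed Cy3. They were converted to log2, control spots and spots with an outlier flag were left out, and spots of a probe were averaged. Dim probes were filtered out: a share of 0.5 or more of a probe's spots had to be well above background in the Cy5 channel, on all arrays of 1 group or more. This kept 19434 probes, 698 of them with a value missing on some array. Missing values were left out of that probe's fit.

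Comparisons between the groups of the labels used R 4.3.3 and its package limma 3.58.1, fitting a mean per group and moderating the variances with eBayes (3.36 prior degrees of freedom), after the study's comparison of 4 groups. The Benjamini-Hochberg adjustment ran over all probes tested, with a threshold of 0.05. Members were also compared by 40 exact two-sided permutation tests, not adjusted, whose smallest possible p is 0.00794 for 5 against 5 rats and 0.00216 for the others. Rats are separate animals, and their number limits the precision. A difference is the first group named minus the second, and ± is its SE unless SD is written. Cy5 alone was quantile normalized. Per-channel values are log2 of the processed signal. Pathway lists name the genes with an unadjusted p under 0.05, at most 3 for each list and diet comparison. Named as most similar are the 5 genes of highest Pearson r with the members' mean. Members and lists were chosen with earlier results of these data known. The fit was tested on simulated data with 200 changed probes. The authors' table of their significant entries was not used here. Alternatives covered normalization, filters, slides, pairing, variance model, probe choice and single arrays left out.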

Additional observations from a re-analysis of the deposited data

Results flagged for a closer look

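Of 40 sets of values (10 members in 4 groups), 3 held a rat far from the rest of its group by Dixon's criterion, and chance marks about 5% of such sets. Acly on CD 3 rat 1 was -0.23, with the nearest rat of the group at 1.32. Scd1 on BD 3 rat 3 was 5.11, with the nearest at -0.57, and this array is one of the 6 with a dim Scd1 reference. Scd on CD 14 rat 3 was 6.03, with the nearest at 0.81, and this rat was highest in 9 of 10 members.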

How the results depend on the processing

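Of 43 other settings, 22 of which left out 1 array, 42 allowed a test, and limma called 0 of 10 members in each comparison they could test. Over all probes the main fit called 0 in each comparison of 2 groups, but other settings called more. For diet the highest counts were 221 at 3 months (Cy5 alone) and 4 at 14 months (array weights). For time they were 204 on the control diet (without CD 3 rat 5) and 100 on the BASE-diet (array weights). Slides B and C alone gave 1 comparison each, and slide E, with 1 rat against 1, gave values with no test. Of 1578 single differences under the 43 settings, 1490 kept their direction and 88 had the other sign. Of these 4 were within slide E, in CD 14 against CD 3: Acaca (-0.26), Acacb (-0.42), Elovl6 (-0.21) and Thrsp (-0.25). Of the 88, 11 lay beyond 1 SE of 0 under the other setting, among them Acaca (1.42 in place of -0.40) and Scd1 (-3.42 in place of 0.03) in BD 3 against CD 3 within slide B. In 1, Acly in the same comparison and slide (0.42 in place of -0.75), the reported value also lay beyond 1 SE. By comparison, the other sign occurred in 44 of 397 values for diet at 3 months and 34 of 397 at 14 months. For time it occurred in 10 of 397 on the control diet and 0 of 387 on the BASE-diet. Many of these values could not turn. Leaving out an array of a group not compared, or changing only the filter or the variance model, leaves a difference as it was. These counts therefore cannot show how firm a direction is. The median over members for CD 14 against CD 3 was -0.1 within slide E, and that for BD 14 against BD 3 was 2.07 with slide as a fixed block, both further from 0.93 and 1.0 than the spread between rats (SD 0.77). Why was not tested. With 1 array left out the medians ranged from -0.38 to 0.26 and from -0.19 to 0.45 for diet at 3 and 14 months, and from 0.53 (without CD 14 rat 3) to 1.28 and from 0.82 to 1.25 for time. Rat numbers did not pair the samples (correlations of deviations -0.264 to 0.267, 2 of 11 comparisons with the own number as best partner), and a fit with the replicate block gave medians of -0.03, 0.03, 0.93 and 0.93 and called 0 members. The subsets on reference level and brightest rats were chosen after seeing the data. Signal over background limits Acaca, Acacb and Scd in Cy5 on slide D, and Acacb in Cy3 on 12 of 22 arrays.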

Other observations

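Genes of the daily clock, whose phase is known to bear on lipogenic transcripts, were given as a list of 11. None passed the adjusted test in limma. In CD 14 against CD 3, Nr1d1 was 0.70 ± 0.32 higher and Cry1 lower, at -1.22 ± 0.55 (adjusted p 0.465 for each). In BD 14 against BD 3, Nr1d1 was 0.87 ± 0.32 higher, Nr1d2 1.28 ± 0.4 higher and Cry1 lower, at -1.31 ± 0.55, with adjusted p from 0.407 to 0.608. With slide as a fixed block Cry1 in CD 14 against CD 3 was 0.62 ± 0.76, so its sign turned, and 0 of 11 clock genes had an unadjusted p under 0.05 in that comparison. In the fit of group means no clock gene had an unadjusted p under 0.05 in a diet comparison. With the block 1 had at each time, Cry1 at 3 months (1.81 ± 0.73, adjusted p 0.385) and Nr1d2 at 14 months (1.66 ± 0.4, adjusted p 0.209).

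Of 9 tested genes of the fasting response, 8 were higher in BD 14 than in CD 14, with a median of 0.82 (all probes 56.3% and 0.05), and 5 of 9 in BD 3 against CD 3, with a median of 0.26. None passed the adjusted test, and Cpt1a alone had an unadjusted p under 0.05. Without CD 14 rat 3 the former were 7 of 9 with a median of 0.57, and none had an unadjusted p under 0.05. Red cell markers were lower in 4 of 4 in BD 3 against CD 3, with a median of -0.81 (all probes 0.03), and in 4 of 4 in BD 14 against CD 14, with a median of -0.33 (all probes 0.05). At 3 months 2 had an unadjusted p under 0.05, Hbb at -1.19 ± 0.46 (adjusted p 0.585) and Slc4a1 at -0.96 ± 0.44 (adjusted p 0.685). Of 9 hepatocyte markers 5 were higher in BD 14 than in CD 14, with a median of 0.19, and 4 in Cy5 alone, with a median of -0.17. Among them Hnf4a was 0.77 ± 0.29 higher (adjusted p 0.952), and 0.37 ± 0.41 with slide as a fixed block. Bile duct markers were higher on the BASE-diet in 1 of 3 at 3 months and 3 of 3 at 14 months (medians -0.32 and 0.29). Stellate markers were higher in 4 of 5 at each time (medians 0.13 and 0.13). Neither list had an unadjusted p under 0.05 in the fit of group means. In Cy5 alone 3 and 1 of 5 stellate markers were higher (medians 0.09 and -0.09), and with slide as a fixed block 2 and 4 of 5 (-0.15 and 0.43). An unadjusted p under 0.05 was held by 1 at 14 months in Cy5 alone and by 1 at 3 months with the block.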
